A study of Homo sapiens with 12 samples.

Results

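The 4 HOX gene clusters were examined in H3K27ac maps of MDA-MB231 cells, an established human line of basal-like breast cancer. H3K27ac is an acetylated lysine of histone H3 that marks active promoters and enhancers. Members were all H3K27ac peaks inside 4 fixed intervals of build hg19: HOXA on chromosome 7 (27130000 to 27250000, 120 kb), HOXB on chromosome 17 (46600000 to 46815000, 215 kb), HOXC on chromosome 12 (54330000 to 54455000, 125 kb) and HOXD on chromosome 2 (176950000 to 177060000, 110 kb). The intervals were set by position and not by measured values. They held 238 of the 659281 peaks of the 9 lists on chromosomes 1 to 22 and X, which is 0.0361%. Merged over the libraries, these peaks formed 34 of 120363 regions. By cluster there were 6 regions in HOXA, 17 in HOXB, 5 in HOXC and 6 in HOXD. The 38 listed member genes comprise 10 HOXA, 10 HOXB, 9 HOXC and 9 HOXD genes.

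All 3 groups were MDA-MB231 cells infected with lentivirus and grown for 96 h, with native chromatin from 250000 to 500000 cells per ChIP. The groups, with 3 libraries each, were Control (virus labelled EV-control), CDK19KD (shRNA against CDK19) and CDK8KD (shRNA against CDK8), both targets being kinases of the Mediator kinase module. The number of different hairpins, and whether replicates came from separate cultures, are not given in the sources used here, so p-values measure only the spread between these libraries. The 3 Input samples and the level of either kinase were not analysed here, and the identity of the line was not checked against marker genes because no annotation of hg19 was used. The lists of the 9 libraries held from 62669 to 87530 peaks and covered from 8.62% to 10.5% of the chromosomes used. Read depth is not given in the sources used here, so no value carries a counting interval.

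HOX genes encode homeodomain transcription factors that give cells their position along the body axis. They lie in 4 clusters, in which neighbouring genes are transcribed in the same direction and the order of the genes follows the order of their expression along the axis. Polycomb complexes keep silent HOX genes under H3K27me3, a methylation of the same lysine that acetylation marks in active stretches, while Trithorax-type complexes maintain the active ones. Adult cells therefore often carry a cluster that is active in part and silent in part, and cancer cells can depart from the pattern of their tissue.

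Ordered from the low to the high coordinate in the RefSeq gene table (GRCh38.p14, used for order only), the HOXA members run from HOXA2 to HOXA13, the HOXB members from HOXB1 to HOXB13, the HOXC members from HOXC13 to HOXC4 and the HOXD members from HOXD13 to HOXD1. HOXA and HOXB thus have their anterior genes at the low end of the interval, and HOXC and HOXD their posterior ones. All 38 members were found in that table. Because it is of another build, peaks were placed by their distance from the low end of the interval, and no peak was tied to a single gene or promoter.

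Promoter letters from RefSeq (GRCh38.p14) were listed for 20 of the 38 members, in 26 different windows of 250 bases before a start, with identical windows counted once. The HOX windows held a median of 19.5 CpG dinucleotides (0 to 40), beside 11 over 34788 windows of all listed promoters. The motif CCAAT, searched on both strands, was in 17 of the 26 HOX windows (65.4%) and in 32.0% of all windows. GGGCGG was in 13 HOX windows (50%, 42.6% of all), TATAAA in 5 (19.2%, 10.8% of all) and TAATTA in 2 (7.69%, 4.37% of all), each searched by itself on both strands. Some windows belong to the same gene, most of all to HOXA3. With identical windows counted once, HOXB appears only with HOXB1 and HOXC only with HOXC4. These shares therefore come mostly from HOXA and HOXD. The windows of HOXD13 and HOXD1 are shown because these are the outermost members at either end of HOXD, and because the strongest and the widest constant region of HOXD lay towards these ends. HOXB1 is shown beside them as the first member of the cluster with the most peaks. Capitals mark CpG dinucleotides, and each sequence runs 5′ to 3′ in the direction of its gene (HOXD13 and HOXD1 on the plus strand, HOXB1 on the minus strand).
HOXD13: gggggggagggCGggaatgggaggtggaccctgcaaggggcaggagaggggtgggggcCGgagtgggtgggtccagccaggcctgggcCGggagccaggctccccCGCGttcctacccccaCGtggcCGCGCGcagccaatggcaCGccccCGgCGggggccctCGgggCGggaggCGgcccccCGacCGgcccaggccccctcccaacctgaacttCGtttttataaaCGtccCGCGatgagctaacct
HOXD1: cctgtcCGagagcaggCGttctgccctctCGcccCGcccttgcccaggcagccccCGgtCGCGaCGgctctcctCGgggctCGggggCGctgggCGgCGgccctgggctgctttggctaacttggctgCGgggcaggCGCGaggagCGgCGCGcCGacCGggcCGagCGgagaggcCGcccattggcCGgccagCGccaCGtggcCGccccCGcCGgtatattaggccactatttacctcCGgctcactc
HOXB1: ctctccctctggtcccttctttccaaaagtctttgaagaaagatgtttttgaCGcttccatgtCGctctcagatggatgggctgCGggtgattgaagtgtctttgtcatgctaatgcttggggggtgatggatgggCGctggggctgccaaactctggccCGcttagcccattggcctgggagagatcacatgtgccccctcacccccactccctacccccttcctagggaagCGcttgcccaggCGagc
HOXD1, which encodes an anterior factor, had 31 CpG in this window, more than 89.1% of all windows. HOXD13, which encodes the factor of digits and limb ends, had 21 (more than 69.8%) and was one of the 5 with TATAAA. HOXB1, a hindbrain patterning gene, had 7 (more than 41.2%). All 3 held CCAAT. Whether a peak covered these windows was not analysed here.

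Acetylation in the clusters came as short, separate stretches with long gaps between them, and the same stretches recurred over the libraries. Of the 570 kb of the 4 intervals, 33.6 kb (5.9%) lay under a peak in all 9 libraries, 90.1 kb (15.8%) in 1 to 8 libraries and 446 kb (78.3%) in none. Of the length covered in any library, 27.2% was covered in all 9, close to 28.6% over all chromosomes used. The share was 43.9% in HOXD, 31.0% in HOXC, 23.8% in HOXA and 23.3% in HOXB. By this share HOXD varied least between libraries and HOXB most.

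**Figure D1:**
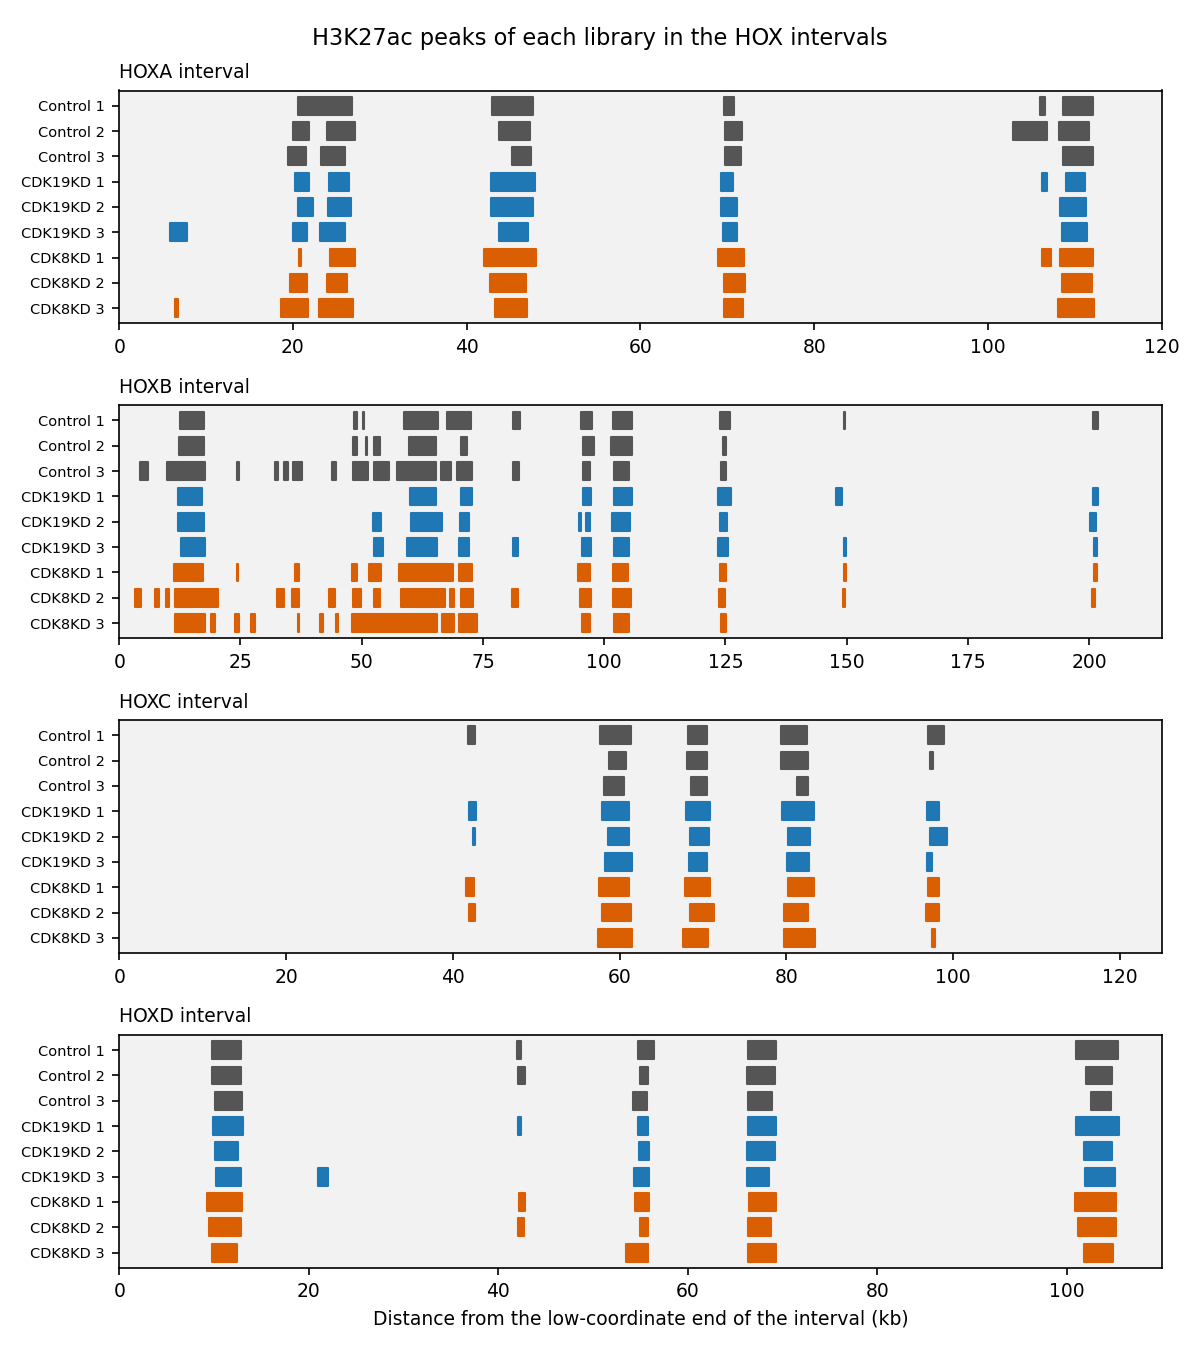
H3K27ac peaks of each library (rows, coloured by group) against the distance from the low-coordinate end of the HOXA, HOXB, HOXC and HOXD intervals in kb. The same few stretches recur in the 9 rows, and HOXB has further thin peaks in its first 47.9 kb in Control replicate 3 and the CDK8KD libraries.

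Of the 34 regions, 16 (47.1%) were held by all 9 libraries, where 28.3% of all regions were. These 16 were 4 in HOXA, 5 in HOXB, 3 in HOXC and 4 in HOXD. A single library held 5 of the 34 regions (14.7%), where 38.5% of all regions were held by a single library. The constant regions of the clusters were narrow. Their median width was 4.12 kb, beside 7.60 kb for the 34047 regions held by all 9 libraries. Only 3 of the 16, the region at 18.6 to 27.1 kb of HOXA and those at 9.6 to 20.5 and 47.9 to 73.9 kb of HOXB, were wider than that median.

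HOXD, with members for the forearm, digits and genital tubercle at its low end and anterior members at its high end, held 6 regions. The peak at 9.3 to 13 kb (chr2:176959256-176963046, 3.79 kb) was the strongest of the 4 clusters in 7 of the 9 libraries by its percentile. A percentile here is the position of the peak by the deposited −log10 p within its own list. It stood at 97.6, 99.2 and 90.8 in Control replicates 1 to 3, at 97.7, 97.2 and 96.6 in CDK19KD, and at 96.1, 97.4 and 86.8 in CDK8KD. Its fold enrichment, the authors' value per peak, was 7.59, 5.95 and 4.92 in Control, 7.85, 5.68 and 7.51 in CDK19KD and 6.72, 5.79 and 5.26 in CDK8KD. The 9 values of each measure overlapped between the groups, and the fold differed more between libraries of 1 group than between the group means. The start of the peak varied by an SD of 309 bp and its end by 206 bp over the 9 libraries.

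At the other end of HOXD, the widest region of the cluster lay at 100.9 to 105.4 kb (chr2:177050852-177055443, 4.59 kb), with percentiles from 69.3 to 82.8 and a median of 76.2. The peak covered 4.45, 2.79 and 2.12 kb in Control, 4.54, 2.99 and 3.22 kb in CDK19KD and 4.28, 3.96 and 3.10 kb in CDK8KD. In each group replicate 1 had the widest peak, and the groups overlapped. Between them, constant regions lay at 53.4 to 56.5 kb (median percentile 43.8) and at 66.2 to 69.3 kb (median percentile 74.4), both named after their values were seen. No library had a peak in the 31.5 kb from 69.3 to 100.9 kb (chr2:177019349-177050851), the longest such gap of this cluster.

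HOXC, whose posterior members lie at the low end, was the cluster with the least coverage. No library had a peak in its first 41.6 kb (chr12:54330001-54371599), the end of HOXC13. The 3 constant regions followed each other at 57.4 to 61.5, 67.5 to 71.3 and 79.3 to 83.5 kb, in the middle of the interval. The first of them (chr12:54387416-54391499, 4.08 kb) had the highest median percentile, 70.9 (66.4 to 75.6). The last (chr12:54409311-54413480, 4.17 kb) had a median of 47.1 and a range of 22.2 to 57.8. It covered 3.12, 3.23 and 1.30 kb in Control, 3.79, 2.56 and 2.57 kb in CDK19KD and 3.08, 2.88 and 3.79 kb in CDK8KD. Control replicate 3 had the shortest peak, and the other libraries overlapped. Towards the HOXC4 end a weaker region at 96.8 to 99.3 kb was held by 8 libraries and missed by Control replicate 3, and a region at 41.6 to 42.8 kb by 5. These 2 were named after their values were seen.

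HOXA, with anterior members at the low end and HOXA13 at the high end, held 4 constant regions spread over the interval. The widest (chr7:27148631-27157138, 8.51 kb, at 18.6 to 27.1 kb) was 1 peak in Control replicate 1 and a pair of peaks in the other 8 libraries. It covered 6.24, 5.11 and 4.86 kb in Control, 4, 4.33 and 4.42 kb in CDK19KD and 3.11, 4.17 and 6.88 kb in CDK8KD. The lowest and the highest value were both in CDK8KD. The next (chr7:27172017-27177952, 5.94 kb, at 42.0 to 48.0 kb) covered 4.72, 3.60 and 2.25 kb in Control, 5.12, 4.80 and 3.42 kb in CDK19KD and 5.94, 4.14 and 3.64 kb in CDK8KD. Its percentile was 46.6, 46.8 and 49.7 in Control, 63.5, 64.2 and 63.6 in CDK19KD and 63.7, 59.3 and 60.3 in CDK8KD. Every Control percentile lay below every knockdown percentile, and the share of all regions with this order was not counted. Percentiles come from lists of different lengths. The part of list length in this order was not tested, and the order is not read as a change. The other constant regions lay at 68.9 to 72.0 kb and at 108.0 to 112.2 kb. Between them ran the longest gap of the cluster, 30.9 kb without a peak in any library (chr7:27202049-27232928).

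HOXB, whose members HOXB1 to HOXB9 lie together with HOXB13 apart at the high end, held the most regions. Of its 17 regions, 5 (29.4%) were held by all 9 libraries, near the 28.3% of all regions. The widest region of the 4 clusters lay at 47.9 to 73.9 kb (chr17:46647918-46673885, 26.0 kb), wider than 93.3% of all regions held by 9 libraries. It consisted of 2 to 5 peaks per library, which covered 12.8, 9.16 and 19.5 kb in Control, 7.58, 9.83 and 10.2 kb in CDK19KD and 17.2, 15.1 and 23.9 kb in CDK8KD. Every CDK8KD library covered more of it than every CDK19KD library, while Control, at 9.16 to 19.5 kb, overlapped with both. The share of all regions held by 9 libraries that had this order was not counted. Of those regions, 68.7% had a longer mean covered length in CDK8KD than in CDK19KD. The strongest peak of the HOXB region had percentiles from 81.6 to 91.3.

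The region at 9.6 to 20.5 kb of HOXB (chr17:46609637-46620470, 10.8 kb), nearer to the HOXB1 end, had percentiles from 83.8 to 96.9 and a median of 87.1. It covered 4.94, 5.24 and 7.81 kb in Control, 5.11, 5.50 and 4.90 kb in CDK19KD and 5.86, 9.60 and 7.03 kb in CDK8KD. CDK8KD libraries were again above CDK19KD libraries, and Control overlapped with both. How many other regions had this order was not counted. A region at 101.5 to 105.7 kb, named after its values were seen, had a median percentile of 79.3 and covered from 2.96 to 4.15 kb. Towards HOXB13, no library had a peak in the 50.5 kb from 149.8 to 200.3 kb (chr17:46749830-46800302), the longest gap of the 4 clusters. A thin region beyond it, at 200.3 to 201.9 kb, was held by 6 libraries, 1 of Control, 3 of CDK19KD and 2 of CDK8KD. It was named after its values were seen.

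The first 47.9 kb of HOXB also held 8 thin regions of 0.57 to 2.63 kb, with −log10 p from 2.08 to 4.2. No CDK19KD library held any of them (0 of 8). Of all regions, 42.8% were held by no CDK19KD library, and of the 70233 regions no wider than the widest of these 8, 68.1% were. CDK8KD replicates 1, 2 and 3 held 2, 5 and 5. In Control they were all in replicate 3, which held 5, while replicates 1 and 2 held none. This set was put together after its peaks were seen. They covered 5.98 kb in Control replicate 3 and 1.11, 6.05 and 2.80 kb in CDK8KD. Beyond 73.9 kb the covered length was 10.9, 6.92 and 6.95 kb in Control, 10.2, 7.76 and 9.28 kb in CDK19KD and 7.69, 9.78 and 5.92 kb in CDK8KD, and the groups overlapped.

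**Figure D2:**
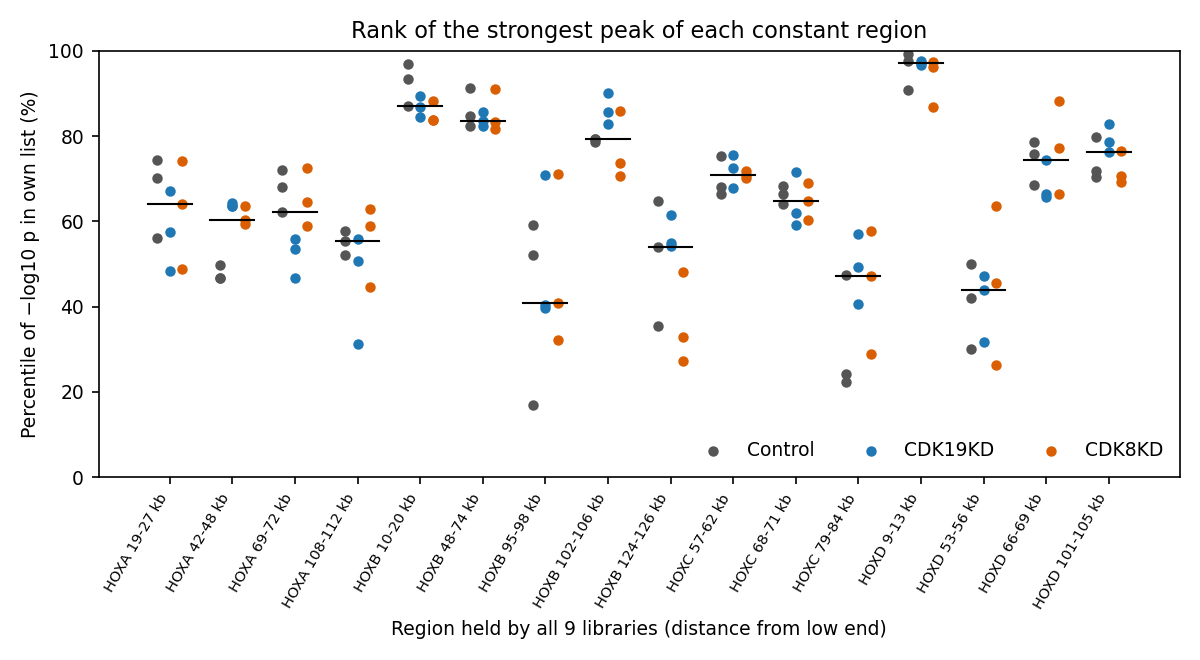
Percentile of the strongest peak by −log10 p within its own list (vertical axis, percent) for each of the 16 regions held by all 9 libraries (horizontal axis), one point per library coloured by group, with the median over libraries as a line. The HOXD region at 9.3 to 13 kb has the highest median, 97.2, and the HOXB region at 94.6 to 97.9 kb the lowest, 40.8.

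From 4 to 7 per library, or 14.8% to 28.0% of the cluster peaks, were among the 20000 strongest peaks of their list, where 22.8% to 31.9% of each list was. The share was below that of the list in 9 of 9 libraries, by as little as 28.0% against 28.7% in CDK19KD replicate 3, without a test. Among peaks with a −log10 q of at least 5 it was below in 7 of 9 and above in Control replicate 3 (28.6% against 26.1%) and CDK19KD replicate 3 (44.0% against 43.9%). The region at the low end of HOXD and the 2 wide HOXB regions were the 3 regions with such a peak in all 9 libraries. The HOXB region at 101.5 to 105.7 kb had one in 8 libraries and the HOXD regions at 100.9 to 105.4 and 66.2 to 69.3 kb in 7 and 4. In HOXC only the region at 57.4 to 61.5 kb had one, in 3 libraries. In HOXA the regions at 18.6 to 27.1 and 68.9 to 72.0 kb had one in 1 library each.

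The surroundings set the clusters apart from each other. In the 50 kb below the HOXB interval, from 69.9% to 86.4% of the length was under a peak (median 81.2% over the 9 libraries), and in the 50 kb above it from 4.95% to 17.0%. The HOXA interval had from 26.1% to 45.6% below and from 7.04% to 31.0% above. The flanks of HOXC and HOXD had no peak in any library on either side. Within the intervals the mean covered share over the 9 libraries was 14.1% ± 3.75 (SD) in HOXB, 12.6% ± 1.60 in HOXA, 10.0% ± 1.23 in HOXD and 8.08% ± 1.83 in HOXC. The ranges of neighbours in this order overlapped, from 9.92% to 18.9% in HOXB, 10.3% to 14.9% in HOXA, 8.15% to 11.8% in HOXD and 4.51% to 9.95% in HOXC. Tiles of the same lengths over all chromosomes used had a mean of 9.51%. HOXB covered more than 73.3% of its tiles, HOXA more than 71.8%, HOXD more than 67.6% and HOXC more than 62.9%.

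**Figure D3:**
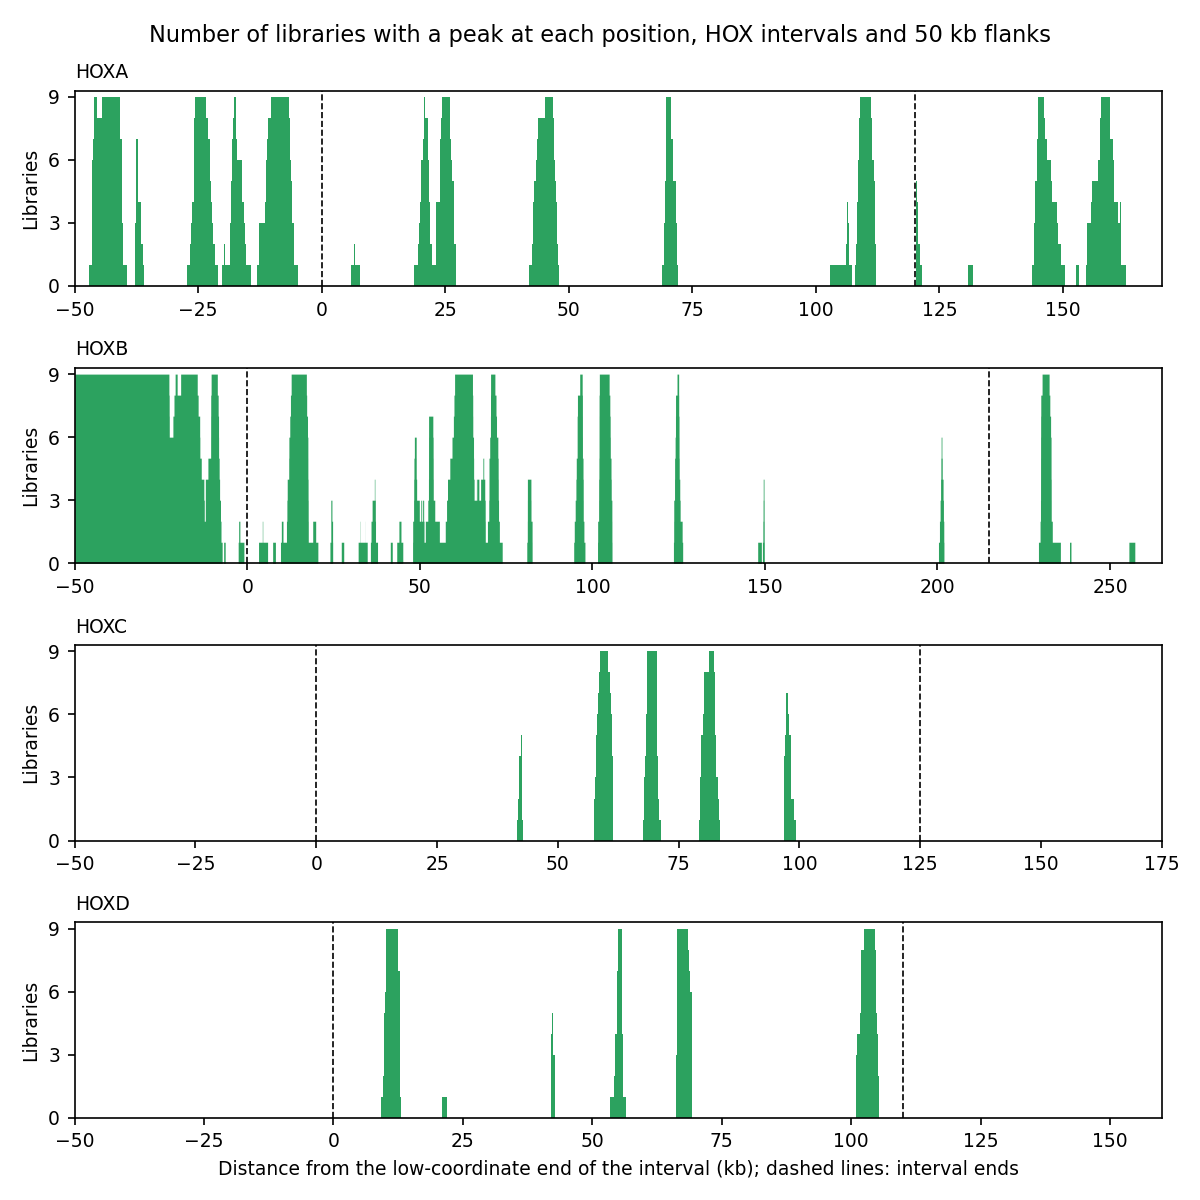
Number of libraries (0 to 9) with an H3K27ac peak at each position of the 4 intervals and of 50 kb to either side, against the distance from the low-coordinate end in kb; dashed lines mark the interval ends. HOXC and HOXD stand between flanks without peaks, while the flank below HOXB is covered in all 9 libraries over most of its length.

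In HOXB the covered share was highest in CDK8KD and lowest in CDK19KD, and in no cluster did the 3 groups differ beyond the spread between libraries. HOXB was covered to 13.3%, 9.92% and 18.7% in Control, 10.7%, 10.7% and 11.3% in CDK19KD and 14.8%, 18.9% and 18.5% in CDK8KD (replicates 1 to 3). Control spanned nearly the range of both knockdowns, while every CDK8KD library lay above every CDK19KD library. Of 14106 tiles of this length, 12.8% showed the same order of these groups. Tiles without a peak are counted among them and cannot show it. The share among tiles with peaks alone was not computed and would be higher. Control had a mean of 13.98% ± 4.42, CDK19KD of 10.9% ± 0.375 and CDK8KD of 17.4% ± 2.23 (SD, n = 3 each). Of the variance, 56.0% lay between the groups (exact two-sided permutation p = 0.0857, adjusted over the 4 clusters 0.343). CDK8KD was 6.47 percentage points above CDK19KD (exact permutation p = 0.1, the smallest that 6 libraries allow). It was 3.40 points above Control (exact permutation p = 0.3), and CDK19KD was at −3.07 points from Control (exact permutation p = 0.4).

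When each list was held to its 20000 strongest peaks, HOXB passed the threshold, but not without most single libraries. Its covered share was then 7.37%, 6.98% and 8.75% in Control, 6.60%, 7.36% and 6.68% in CDK19KD and 9.25%, 10.1% and 11.1% in CDK8KD. Every CDK8KD library lay above every other library, an order shown by 4.42% of tiles of this length in the same setting, tiles without a peak included. The share of variance between groups was 82.0% (exact permutation p = 0.00714, adjusted over the 4 clusters 0.0286). Within replicate numbers, which were taken to pair the samples, the exact permutation p was 0.0556 (adjusted 0.222, smallest possible unadjusted 0.0278). With that smallest p, 1 cluster alone could not pass after adjustment over 4, so nothing is concluded from it. With each library left out in turn, HOXB passed in 2 of 9 cases, without CDK19KD replicate 2 and without CDK8KD replicate 1 (adjusted exact permutation p from 0.0286 to 0.171 over the 9). The HOXB regions with a peak among these were the 2 wide regions, in 9 libraries each, and the region at 101.5 to 105.7 kb, in 8. The other 3 clusters did not pass in this setting, with adjusted exact permutation p-values of 0.905 to 1.

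HOXA was covered to 13.3%, 14.9% and 10.3% in Control, 11.1%, 11.7% and 11.8% in CDK19KD and 14.03%, 11.8% and 14.3% in CDK8KD. The groups overlapped, with 26.8% of the variance between them (exact permutation p = 0.343, adjusted 0.457). With 50 kb added on either side, where HOXA has peaks, the share of variance was 83.4% (exact permutation p = 0.0179, adjusted 0.0714). HOXC was covered to 9.47%, 6.52% and 4.51% in Control, 9.95%, 7.72% and 6.76% in CDK19KD and 9.48%, 9.23% and 9.05% in CDK8KD. Both knockdowns exceeded Control in each of the 3 replicate numbers, by means of 1.31 points for CDK19KD and 2.42 points for CDK8KD (exact permutation p = 0.4 and 0.3). In replicate 1, CDK8KD and Control were nearly equal, at 9.485% and 9.472%. With the signs of the paired differences flipped, the exact permutation p was 0.25 for each knockdown, the smallest possible. Without Control replicate 3 the differences in HOXC were 0.15 points for CDK19KD and 1.26 points for CDK8KD. How often other stretches show this order was not counted. The groups accounted for 33.0% of the variance (exact permutation p = 0.286, adjusted 0.457). HOXD was covered to 11.4%, 9.44% and 8.15% in Control, 10.9%, 8.58% and 9.80% in CDK19KD and 11.8%, 10.2% and 10.0% in CDK8KD. Its groups overlapped, with 15.8% of the variance between them (exact permutation p = 0.593, adjusted 0.593). None of the 12 differences between pairs of groups had an adjusted p under 0.480, and no pair could pass 0.05 with 6 libraries.

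**Figure D4:**
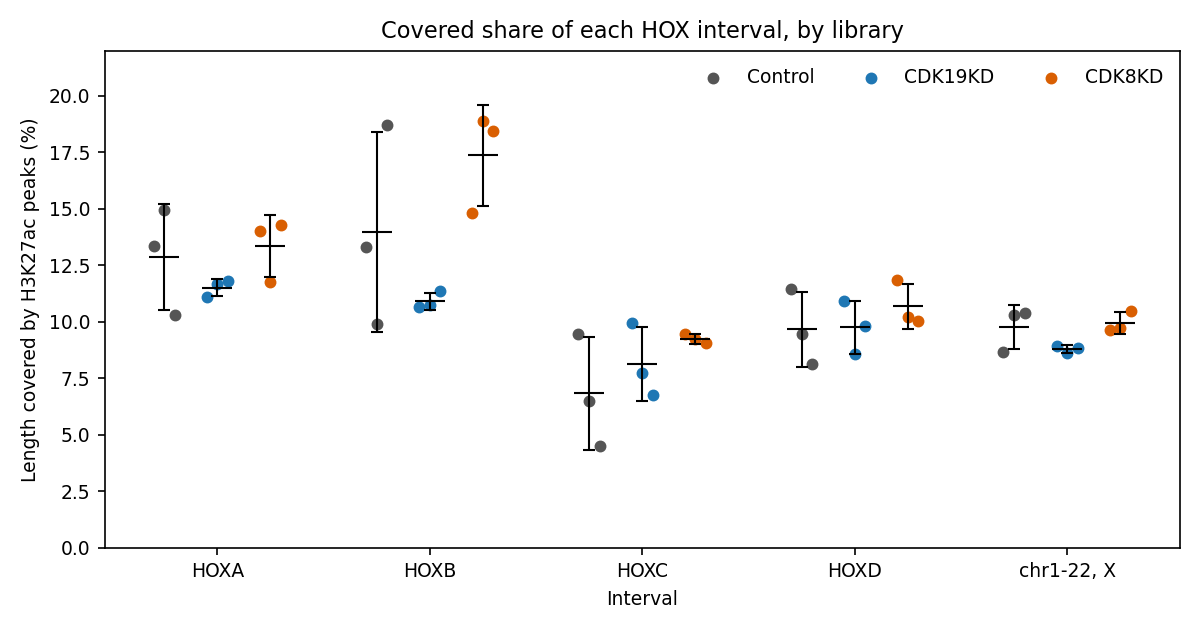
Share of each HOX interval, and of chromosomes 1 to 22 and X, covered by H3K27ac peaks (vertical axis, percent), one point per library coloured by group, with the mean and SD of each group in black (n = 3). In HOXB the CDK8KD libraries, at 14.8% to 18.9%, lie above the CDK19KD libraries, at 10.7% to 11.3%, while Control spans 9.92% to 18.7%.

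Over the 4 intervals together the libraries covered 12.1%, 10.1% and 11.8% in Control, 10.6%, 9.85% and 10.1% in CDK19KD and 12.9%, 13.6% and 13.9% in CDK8KD. Every CDK8KD library lay above every Control and CDK19KD library. HOXB is the longest interval and weighs most in this sum, which was formed after the values were seen and was not tested. How often other stretches of the chromosomes have this order was not counted. Over all chromosomes used, CDK8KD libraries (9.62% to 10.5%) were also above CDK19KD libraries (8.62% to 8.94%), while Control (8.66% to 10.4%) overlapped with both. Its part in the values of the clusters was not tested. With cluster shares scaled by the total of each library, CDK8KD was above CDK19KD by 4.81 points in HOXB (exact permutation p = 0.1), beside 6.47 unscaled. The scaled difference was 0.33 points in HOXA and −0.28 in HOXD (exact permutation p = 0.8 each), beside 1.85 and 0.93 unscaled. In HOXC it was 0.08 points, beside 1.11 unscaled.

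At the scale of 10 kb, the 4 intervals held 56 whole windows, of which 35 were touched by a peak and 26 had the mean share of at least 5% needed for testing. The last 5 kb of HOXB and of HOXC fall outside whole windows. With limma over 78056 windows, 0 of the 26 passed an adjusted p of 0.05 in any comparison. For CDK8KD higher than Control the background was 0.630% of windows, and for CDK8KD lower it was 0.0858%. At this threshold CDK19KD was called higher than Control in 0.0551% and lower in 0.0231% of all windows. CDK8KD was called higher than CDK19KD in 0.780% and lower in 0.225%. At an unadjusted p under 0.05, 4 of the 26 were higher in CDK8KD than in CDK19KD (11.1% of all windows) and 0 were lower (3.48%). For CDK19KD against Control 0 were higher (4.38%) and 1 was lower (5.54%). For CDK8KD against Control 0 were higher (10.5%) and 0 were lower (4.14%).

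The windows with the lowest p lay in HOXB and HOXA. The HOXB window at 40 to 50 kb (chr17:46640001-46650000) was not covered in any CDK19KD library, and was covered to 11.5%, 27.5% and 31.2% in CDK8KD and to 5.4%, 6.5% and 25.3% in Control. CDK8KD exceeded CDK19KD there by 23.4 points (SE 6.8, limma adjusted p = 0.166). The HOXB window at 60 to 70 kb (chr17:46660001-46670000) was covered to 88.3%, 77.8% and 79.8% in CDK8KD, to 52.7%, 64.4% and 55.7% in CDK19KD and to 81.1%, 53.6% and 78.5% in Control. CDK8KD was 24.3 points above CDK19KD (SE 7.7, limma adjusted p = 0.197). Every CDK8KD library lay above every CDK19KD library in both HOXB windows. Both were picked for their low p, and the share of all tested windows with that order was not counted. CDK19KD differed from Control by −12.4 points in the first window (SE 6.8, limma adjusted p = 0.582) and by −13.5 points in the second (SE 7.7, limma adjusted p = 0.593). The second turned to the opposite sign when only strong peaks were kept. In the HOXA window at 110 to 120 kb (chr7:27240001-27250000), at the HOXA13 end, CDK8KD had 20.8%, 19.6% and 21.8%, CDK19KD 11.8%, 13.2% and 14%, and Control 20.5%, 16.8% and 20.3%. Every CDK19KD library lay below every library of the other groups. The window was picked for its low p, and the share of all tested windows with this order was not counted. CDK19KD was lower than Control in 59.6% of all tested windows. The difference of CDK19KD from Control in this HOXA window was −6.2 points (SE 2.5, limma adjusted p = 0.488). CDK8KD was 7.7 points above CDK19KD (SE 2.5, limma adjusted p = 0.216).

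For CDK8KD against Control the lowest p-values were in HOXC, in the middle of the cluster. The window at 80 to 90 kb (chr12:54410001-54420000) had 30.8%, 25.4% and 34.8% in CDK8KD and 24.3%, 26.0% and 13% in Control, a difference of 9.2 points (SE 4.8, limma adjusted p = 0.415). The window at 60 to 70 kb (chr12:54390001-54400000) had 33.1%, 29.7% and 39.5% in CDK8KD and 30.9%, 26.5% and 19.7% in Control, a difference of 8.4 points (SE 4.5, limma adjusted p = 0.431). The next was the HOXA window at 70 to 80 kb (chr7:27200001-27210000), with 18.6%, 20.5% and 18.1% in CDK8KD and 7.1%, 16.7% and 16.2% in Control, 5.8 points apart (SE 3.4, limma adjusted p = 0.484). There the lowest CDK8KD value exceeded the highest Control value, while the groups overlapped in both HOXC windows. That HOXA window was picked for its low p, and the share of all tested windows with such an order was not counted.

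Across the tested windows of the clusters the median difference was −1.22 points for CDK19KD against Control, beside −2.26 over all tested windows. It was 2.79 points for CDK8KD against Control (0.88 over all) and 3.20 for CDK8KD against CDK19KD (3.22 over all). The share of windows with a higher value in CDK8KD than in Control was 76.9% (20 of 26), beside 55.2% of all windows. These comparisons share libraries, and neighbouring windows share peaks.

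The mean covered length of the 16 constant regions was compared without a test. CDK8KD had a longer mean covered length than Control in 13 of 16, with a median log2 ratio of 0.26, where 60.1% of all regions held by 9 libraries were longer and their median was 0.08. It was longer than CDK19KD in 13 of 16, where 68.7% of all were, with a median log2 ratio of 0.25 beside 0.15. CDK19KD was longer than Control in 6 of 16, where 41.3% of all were, with medians of −0.05 and −0.07. In HOXA the region at 68.9 to 72.0 kb had a mean of 2.53 ± 0.42 kb for CDK8KD, 1.59 ± 0.24 kb for CDK19KD and 1.66 ± 0.45 kb for Control (SD, n = 3 each). In HOXD the region at 66.2 to 69.3 kb had means of 2.74 ± 0.32 kb for CDK8KD, 2.77 ± 0.37 kb for CDK19KD and 2.81 ± 0.22 kb for Control. These 2 regions were named after their values were seen.

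Gain or loss of whole regions was rare. Of the 34 regions, 1 was held by all CDK8KD and no CDK19KD library, where 0.772% of all regions were. It lay at 35.7 to 37.8 kb of HOXB (chr17:46635697-46637762, 2.07 kb), with −log10 p of 2.51, 4.2 and 2.44 in CDK8KD replicates 1 to 3, and was also held by Control replicate 3 with 3.45. Their percentiles were 9.9, 58.8 and 12.9 in CDK8KD and 51.0 in Control replicate 3, and CDK8KD replicate 3 covered only 0.287 kb of it. No region (0 of 34) was held by all CDK19KD and no CDK8KD library (0.823% of all regions), by all CDK8KD and no Control library (0.605%), or by all CDK19KD and no Control library (0.600%). The same held for all Control and no CDK19KD library (0.420%) and for all Control and no CDK8KD library (0.390%).

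The likeness of pairs of libraries in the clusters was described within and between groups. The Jaccard index of a pair, its shared covered length divided by the length under a peak of at least 1 of them, had a mean of 0.623 ± 0.061 (SD over 9 pairs) within groups and 0.602 ± 0.058 (SD over 27 pairs) between groups over the 4 intervals. In HOXD the means were 0.724 and 0.739, in HOXC 0.637 and 0.646, in HOXA 0.621 and 0.607 and in HOXB 0.593 and 0.547. Pairs share libraries, so no test was made.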

How the data were processed

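The data are native H3K27ac ChIP-seq peak lists, 1 per library, on build hg19 per the submitters' processing notes, which name MACS2 and deepTools. Versions, settings, the control library and read depth are not given in the sources used here. Each deposited peak carries the authors' fold enrichment (a linear ratio), the −log10 of a p-value and of a q-value, and a deposited score that was not used. A deeper library can list peaks that another misses.

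Covered length was computed per interval and library. Regions are unions of overlapping peaks over all 9 lists, and a library holds one if its peaks overlap it by at least 1 bp. The 3 groups were compared by exact two-sided permutation over 1680 labelled arrangements (smallest p 0.00357), and pairs of groups over 20 (smallest p 0.1), with Benjamini-Hochberg adjustment. Shares of 10 kb windows were fitted with limma 3.58.1 (R 4.3.3, trend) on all 9 libraries, with adjustment over all windows. The step was also run on simulated data, in which windows were raised by more than any named window differed here. That run cannot show whether differences of the size seen here would be found. Other steps used Python 3.11.15.

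Replicate numbers recur in the titles. Deviations of same-numbered libraries correlated at 0.138 to 0.611 in all 9 pairs, so the numbers were taken to pair the samples. The main tests did not use this pairing, which entered only where replicate numbers or the replicate block are named.

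Named were the 3 windows of lowest p per comparison, the 2 widest regions and the longest gap of each cluster, and regions exclusive to a group. The members and lists were chosen with earlier results of these data known. RefSeq promoter sequences are of another build and were tied to no peak. Planned scores of promoters, Polycomb and Trithorax genes and marker genes need an annotation of hg19 and were not analysed here.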

Additional observations from a re-analysis of the deposited data

How the results depend on the processing

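Of 443 alternative values for the main results, 3 newly passed the threshold and 34 differences or counts moved beyond the spread or 1.5 times. The 406 others did neither, but many could not: differences stay equal in the replicate block or with a library outside the pair left out. A share of variance was judged by its call alone, and 12 of its 56 values (the added settings below not counted) moved by over 1.5 times: HOXA ranged from 0.8% (scaled) to 83.4% (extended by 50 kb), HOXC from 3.0% (−log10 q of at least 5) to 69.5% (without Control replicate 1), HOXD from 3.0% (without CDK8KD replicate 1) to 44.1% (without Control replicate 1). The 3 that passed were HOXB with the 20000 strongest peaks (82.0% of the variance), and in that setting without CDK19KD replicate 2 (82.9%) or CDK8KD replicate 1 (86.9%). It did not pass without any other single library or in the replicate block (both chosen after seeing the data), nor with all peaks. In the block 1 cluster alone could not. Among 113 values for named windows, 2 changed sign. The HOXB window at 60 to 70 kb went from −13.5 points for CDK19KD against Control to 1.5 with a −log10 q of at least 5 and to 2.8 with the 20000 strongest peaks. The causes were not tested.

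Differences in percentage points moved as follows. With a −log10 q of at least 5, HOXA went to 2.07 (CDK19KD against Control, with a change of sign), 2.62 (CDK8KD against Control) and 0.55 (CDK8KD against CDK19KD). HOXB went to 4.03 (CDK8KD against CDK19KD), HOXC to 0.61 (CDK8KD against Control) and −0.28 (CDK8KD against CDK19KD, with a change of sign), and HOXD to 3.16 (CDK8KD against Control) and 2.40 (CDK8KD against CDK19KD). With the 20000 strongest peaks, CDK8KD against CDK19KD was 0.64 in HOXA, 3.25 in HOXB and −0.79 in HOXC. Scaled by total covered length it was 0.33 in HOXA, 4.81 in HOXB and −0.28 in HOXD. With intervals extended by 50 kb, HOXA gave 0.96 (CDK19KD against Control, with a change of sign), 5.15 (CDK8KD against Control) and 4.19 (CDK8KD against CDK19KD), and HOXB 4.27 for the last.

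The 34 regions fell to 12 with a −log10 q of at least 5 and to 9 with the 20000 strongest peaks. Of these 3 were held by all libraries in either setting, and 0 by all CDK8KD and no CDK19KD library. With 50% of the region to be covered, 6 were held by all 9 libraries. Fewer peaks enter the settings with strong peaks alone.

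With all peaks there was no call to lose, and leaving out each library made none. Counts of regions ranged from 0 to 1 for all CDK19KD and no Control library (1 without Control replicate 1), for all CDK8KD and no Control library (1 without Control replicate 3) and for all Control and no CDK19KD library (1 without CDK8KD replicate 3). They ranged from 1 to 2 for all CDK8KD and no CDK19KD library (2 without CDK8KD replicate 1, 2 or 3). The difference between CDK8KD and Control in HOXA was −0.78 without Control replicate 3, against 0.49 with it, and that between CDK19KD and Control in HOXD ranged from −0.67 to 0.97. In HOXB it ranged from −5.1 to −0.71 for CDK19KD against Control and from 1.37 to 5.76 for CDK8KD against Control, and in HOXC from 0.15 to 2.63 for CDK19KD against Control. The share of variance ranged from 18.1% to 64.1% in HOXA and from 46.7% to 81.8% in HOXB.

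The replicate block, which permutes labels within replicate numbers, gave exact permutation p-values of 0.361 in HOXA, 0.111 in HOXB, 0.0833 in HOXC and 0.278 in HOXD before adjustment. Its smallest p is 0.0278, so 1 cluster alone could not pass after adjustment over 4. It says nothing about stability, also for HOXB with the 20000 strongest peaks (exact permutation p = 0.0556). With the number in the limma model 0 windows of the clusters passed. No setting of limma called a window of the clusters, including windows of 5 kb (42 tested), no minimum share (35 tested), and each library left out.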
